A study of Homo sapiens with 36 samples.

Results

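The miRNAs hsa-miR-7-5p and hsa-miR-9-5p are 2 of the 509 mature miRNA names measured by small RNA sequencing in 36 cultures of the human cell lines HCT116 and RPE1. They were chosen by name, with earlier results of these data known, among them fold changes of single lines that are not used here. Both names are listed in each of the 7 tables of the series. HCT116 is a near-diploid line from a colon carcinoma. RPE1 comes from the pigmented epithelium of the retina and was immortalised with hTERT. An asterisk marks cells that stably express the histone H2B tagged with GFP.

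The 12 groups held 3 libraries each. HCT116 5/4 has 4 copies of chromosome 5 and was set against HCT116. HCT116 18/3 c2, HCT116* 3/3 c11 and HCT116* 8/3 c7 have 3 copies of chromosomes 18, 3 and 8. By the sample descriptions they were set against the same 3 HCT116* libraries, although HCT116 18/3 c2 carries no H2B-GFP by its labels. The study's own listing of detected miRNAs places HCT116 18/3 c2 beside the HCT116 control instead. RPE1 5/3 12/3 has 3 copies each of chromosomes 5 and 12 and was set against RPE1. RPE1* 7/3 and RPE1* 21/3 have 3 copies of chromosomes 7 and 21, and each had an RPE1* control set of its own. The study's list of cell lines also names unplanned gains, of chromosomes 9 and 12 in RPE1* 7/3 and of chromosome 12 in RPE1 5/3 12/3. All cells grew in DMEM with fetal calf serum, and the labels name no treatment. A clone number (c) marks a population grown from 1 cell after chromosome transfer, so such a line is 1 clone.

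The values are the authors' means. One mean covers the 6 libraries of a table, 3 of an aneuploid line and 3 of its control, as counts divided by size factors. A table therefore gives 1 level for line and control together. Differences of a line from its control, and the spread between replicates, were not analysed here, and no test was made. Depth per library is unknown from the means, which summed to between 5556870 (HCT116 5/4) and 11221232 (RPE1* 7/3) over the miRNAs of a table. To set tables side by side, each mean was also expressed in parts per 1000000 (ppm) of that sum. Each table was normalised separately, and the 3 tables on HCT116* libraries share their controls, so tables are not replicates of a cell type.

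A miRNA guides an Argonaute protein to mRNAs that pair with its seed, bases 2 to 8 counted from the 5′ end, and the paired mRNA is repressed. The miRNA miR-7 is known from endocrine pancreas and brain and has targets in growth factor signalling, among them the EGF receptor. The miRNA miR-9 is known from neural progenitors, where it acts on TLX and REST in the choice between division and differentiation. Both sequences are shown with the seed in capitals because the seed sets the targets of each (RefSeq, GRCh38.p14).
hsa-miR-7-5p: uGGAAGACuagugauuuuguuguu
hsa-miR-9-5p: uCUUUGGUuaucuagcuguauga

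The lengths are 24 and 23 bases, and the sequences differ by 15 edits (substitutions, insertions or deletions). Of the 2370 mature names in the RefSeq table, 0 others have the seed of hsa-miR-7-5p and 0 others have that of hsa-miR-9-5p. The nearest other mature miRNA was 5 edits from hsa-miR-7-5p (hsa-miR-3529-5p) and 8 edits from hsa-miR-9-5p (hsa-miR-581).

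Each mature sequence matched the GRCh37 genome, the build hg19 of the authors' mapping, exactly at 3 places. For hsa-miR-7-5p these are chr9:86584726-86584749 (minus strand), chr15:89155087-89155110 (plus) and chr19:4770712-4770735 (plus), which are the genes MIR7-1, MIR7-2 and MIR7-3 of GENCODE 44. The first lies in HNRNPK, which encodes an RNA-binding protein. There 28 transcripts span it and 1 exon covers it, so it is intronic in nearly all. The third lies in an intron of the lncRNA MIR7-3HG, and GENCODE gives no host for the place on chromosome 15. For hsa-miR-9-5p they are chr1:156390184-156390206 (minus, in an intron of MIR9-1HG), chr5:87962720-87962742 (minus) and chr15:89911263-89911285 (plus, in an intron of MIR9-3HG). The place on chromosome 5 lies in the lncRNA LINC00461, exonic in 15 and intronic in the rest of 33 transcripts.

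The hairpins held by the RefSeq table are shown because they carry 1 mature sequence, in capitals, inside different flanks.
MIR7-2: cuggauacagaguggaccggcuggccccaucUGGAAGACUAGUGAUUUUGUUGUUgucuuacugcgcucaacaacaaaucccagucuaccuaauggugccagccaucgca
MIR7-3: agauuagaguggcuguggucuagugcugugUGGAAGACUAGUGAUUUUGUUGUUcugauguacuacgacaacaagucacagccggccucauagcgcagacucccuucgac
MIR9-1: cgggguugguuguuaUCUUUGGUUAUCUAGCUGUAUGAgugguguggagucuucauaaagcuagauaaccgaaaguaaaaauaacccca
MIR9-2: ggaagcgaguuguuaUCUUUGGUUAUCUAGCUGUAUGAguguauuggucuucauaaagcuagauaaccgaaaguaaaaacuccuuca
MIR9-3: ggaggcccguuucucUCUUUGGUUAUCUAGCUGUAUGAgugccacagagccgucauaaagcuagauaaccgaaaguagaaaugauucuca

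A read of the mature arm alone does not show its locus, so the levels below do not separate the loci. How the authors brought the loci of a miRNA into 1 entry per name is not given in the sources used here. The MIR9 hairpins differ from each other by 15 to 20 edits, and MIR7-2 and MIR7-3 by 40. The opposite arms hsa-miR-7-1-3p and hsa-miR-7-2-3p differ by 4 edits, whereas hsa-miR-9-3p has the same sequence at its loci. Of these 3 opposite arms, 0 are listed in the tables, which hold 333 names ending in 5p and 12 ending in 3p.

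Both miRNAs stood higher in the HCT116 tables than in the RPE1 tables. In the means of the tables, hsa-miR-7-5p was at 180135 normalised counts in HCT116 5/4, 342561 in HCT116* 3/3 c11, 314439 in HCT116* 8/3 c7, with 310406 for HCT116 18/3 c2. Its means were 28896 in RPE1 5/3 12/3, 73817 in RPE1* 7/3 and 10556 in RPE1* 21/3. The 4 HCT116 tables thus lay above all 3 RPE1 tables. For hsa-miR-9-5p the means were 14798 in HCT116 5/4, 15906 in HCT116* 3/3 c11, 18196 in HCT116* 8/3 c7, with 17875 for HCT116 18/3 c2. In RPE1 cells they were 129.5 in RPE1 5/3 12/3, 103.9 in RPE1* 7/3 and 72.2 in RPE1* 21/3. No RPE1 table came near an HCT116 table for this miRNA.

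As a share of the summed mean, hsa-miR-7-5p ran from 32417 ppm (HCT116 5/4) to 40109 (HCT116* 8/3 c7) in the HCT116 tables, with 39024 in HCT116 18/3 c2 and 38293 in HCT116* 3/3 c11 between them. In the RPE1 tables its level was 3171 in RPE1 5/3 12/3, 6578 in RPE1* 7/3 and 1310 in RPE1* 21/3. That is 3.24% to 4.01% of the summed means of the listed miRNAs in the HCT116 tables and 0.131% to 0.658% in the RPE1 tables. On the same scale hsa-miR-9-5p was at 2663 in HCT116 5/4, 1778 in HCT116* 3/3 c11, 2321 in HCT116* 8/3 c7, with 2247 for HCT116 18/3 c2. It was at 14.2 in RPE1 5/3 12/3, 9.26 in RPE1* 7/3 and 8.96 in RPE1* 21/3. With no replicate spread in the means, neighbours in these orders within a cell type cannot be called different.

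**Figure D1:**
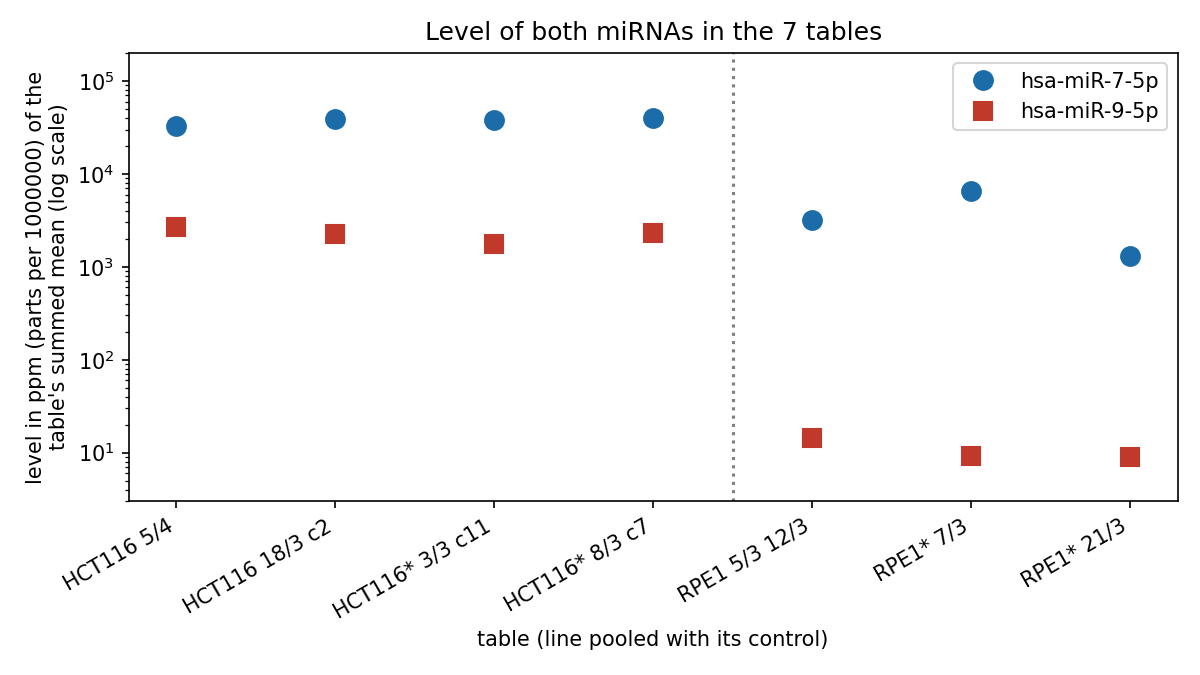
Levels of hsa-miR-7-5p (circles) and hsa-miR-9-5p (squares) in the 7 tables, in ppm of the table's summed mean on a log axis. Each point is 1 table, a line pooled with its control, without an error bar. The dotted line parts the 4 HCT116 tables from the 3 RPE1 tables, and both miRNAs lie higher to its left.

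The median over tables of hsa-miR-7-5p was 38656 ppm for HCT116 and 3171 for RPE1, a 12.2-fold difference (log2 difference 3.61). That fold was 19.0 without the table of RPE1* 7/3 and 8.46 without that of RPE1* 21/3. For hsa-miR-9-5p the medians were 2284 and 9.26 ppm, a 247-fold difference (log2 difference 7.95). Of the 205 miRNAs listed in all 7 tables, hsa-miR-9-5p had the largest HCT116 excess and hsa-miR-7-5p the 17th largest. The next after hsa-miR-9-5p were hsa-miR-3150a-5p at 6.08 and hsa-miR-10b-5p at 5.53 on the log2 scale. A miRNA missing from any table is not in this ranking. So hsa-miR-200a-5p, at 1138 to 2544 ppm in the HCT116 tables and 0.584 in 1 RPE1 table, is left out. The lowest HCT116 table exceeded the highest RPE1 table by 125-fold for hsa-miR-9-5p and 4.93-fold for hsa-miR-7-5p.

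Such separation of the cell types was common. Every HCT116 table lay above every RPE1 table for 98 of the 205 shared miRNAs, or 47.8%, and below every RPE1 table for 22. The median difference over the 205 was 0.95 on the log2 scale. The members therefore lay 2.66 (hsa-miR-7-5p) and 6.99 (hsa-miR-9-5p) above that median. When tables were scaled by the median of ratios over the shared miRNAs, the share fell to 25.9% and the median difference over the 205 was -0.04. On that scale the excess was 2.62 for hsa-miR-7-5p, or 6.16-fold, and 6.79 for hsa-miR-9-5p, or 111-fold, which ranked 16th and 1st. A shared miRNA needs an entry in HCT116* 3/3 c11, which lists no mean below 11.9. The lowest listed means of the RPE1 tables are 1.10 to 4.67. The shared set can thus leave out more miRNAs low in HCT116 than low in RPE1. This could raise the share of 47.8% and the median of 0.95, and its effect was not tested.

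**Figure D2:**
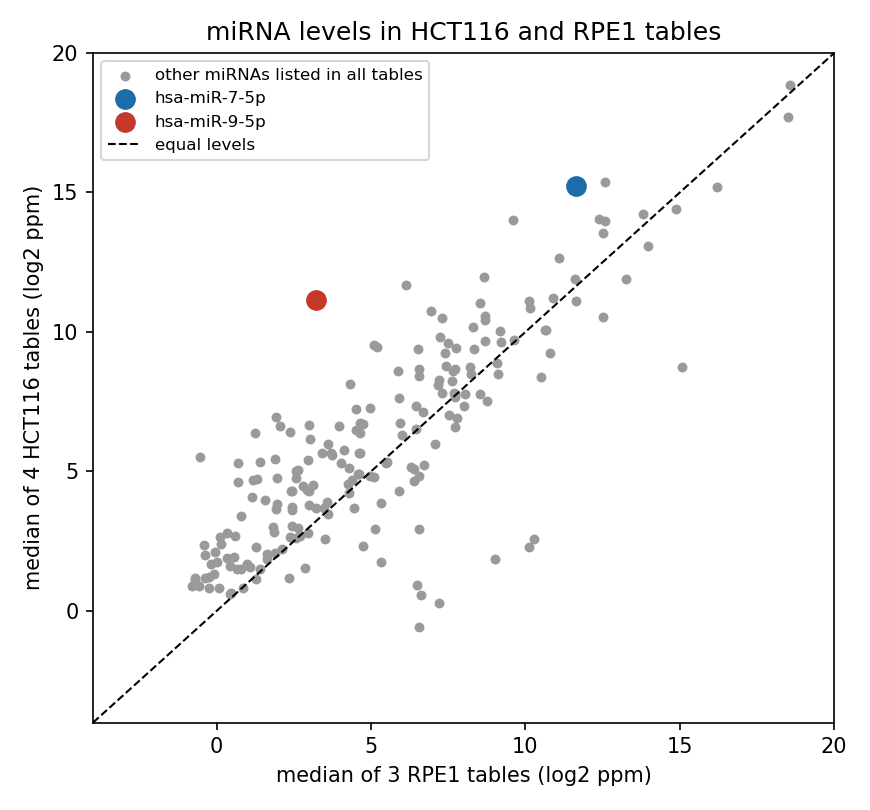
Median level in the 4 HCT116 tables against the median in the 3 RPE1 tables (log2 ppm) for the 205 miRNAs listed in all tables. The dashed line marks equal levels, and hsa-miR-9-5p (red) is farther above it than any other point, 7.95 on the log2 scale, with hsa-miR-7-5p (blue) at 3.61.

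The pooling of a line with its control sets limits to what each group can hold. A table mean is the average of 2 group means, so that neither group mean can exceed 2 times the table mean and 1 of them at least reaches it. For hsa-miR-9-5p no group of a RPE1 table could have a mean above 259.1 normalised counts, whereas each HCT116 table held a group at 14798 or more, which is 57.1 times that ceiling. For hsa-miR-7-5p the ceiling was 147634 in RPE1* 7/3 and the lowest HCT116 table mean 180135, a ratio of 1.22. These limits are on the deposited scale, with the tables normalised separately.

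Ranks within a table order the mean normalised counts and do not depend on its scaling. The miRNA hsa-miR-7-5p was the 5th most abundant of 358 in HCT116 5/4, the 5th of 279 in HCT116* 3/3 c11, the 3rd of 434 in HCT116* 8/3 c7, and the 4th of 409 for HCT116 18/3 c2. In HCT116* 8/3 c7 it followed hsa-miR-21-5p and hsa-miR-100-5p, at 489916 and 205397 ppm, and stood just above hsa-miR-10a-5p at 39366 and hsa-let-7i-5p at 34940. It was the 15th of 297 in RPE1 5/3 12/3, the 10th of 403 in RPE1* 7/3 and the 22nd of 273 in RPE1* 21/3. In RPE1* 7/3 it lay between hsa-miR-99b-5p (7170 ppm) and hsa-miR-30d-5p (6303 ppm). So it stayed among the abundant listed miRNAs of both cell types. The lists hold 12 names ending in 3p beside 333 ending in 5p. Ranks and ppm levels thus leave out most 3p arms and are not those among all miRNAs of the cells.

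The miRNA hsa-miR-9-5p was the 20th in HCT116 5/4, the 25th in HCT116* 3/3 c11, the 22nd in HCT116* 8/3 c7, and the 20th for HCT116 18/3 c2. In HCT116 5/4 its neighbours were hsa-miR-96-5p at 3475 and hsa-miR-10b-5p at 2352 ppm. In RPE1 cells it was the 136th in RPE1 5/3 12/3, the 147th in RPE1* 7/3 and the 152nd in RPE1* 21/3, with 54.4%, 63.7% and 44.5% of the other listed miRNAs below it. It was above 91.4% to 95.3% of the others in the HCT116 tables. The list lengths differ, since the table of HCT116* 3/3 c11 holds no mean below 11.9 and the others hold 42 to 156 means below 10.

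The ratio of hsa-miR-7-5p to hsa-miR-9-5p within a table was 12.2 in HCT116 5/4, 21.5 in HCT116* 3/3 c11, 17.3 in HCT116* 8/3 c7, with 17.4 for HCT116 18/3 c2. It was 223 in RPE1 5/3 12/3, 710 in RPE1* 7/3 and 146 in RPE1* 21/3. Thus hsa-miR-7-5p had the higher mean normalised count of the pair in every table, by a wider margin in each RPE1 table than in any HCT116 table.

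**Figure D3:**
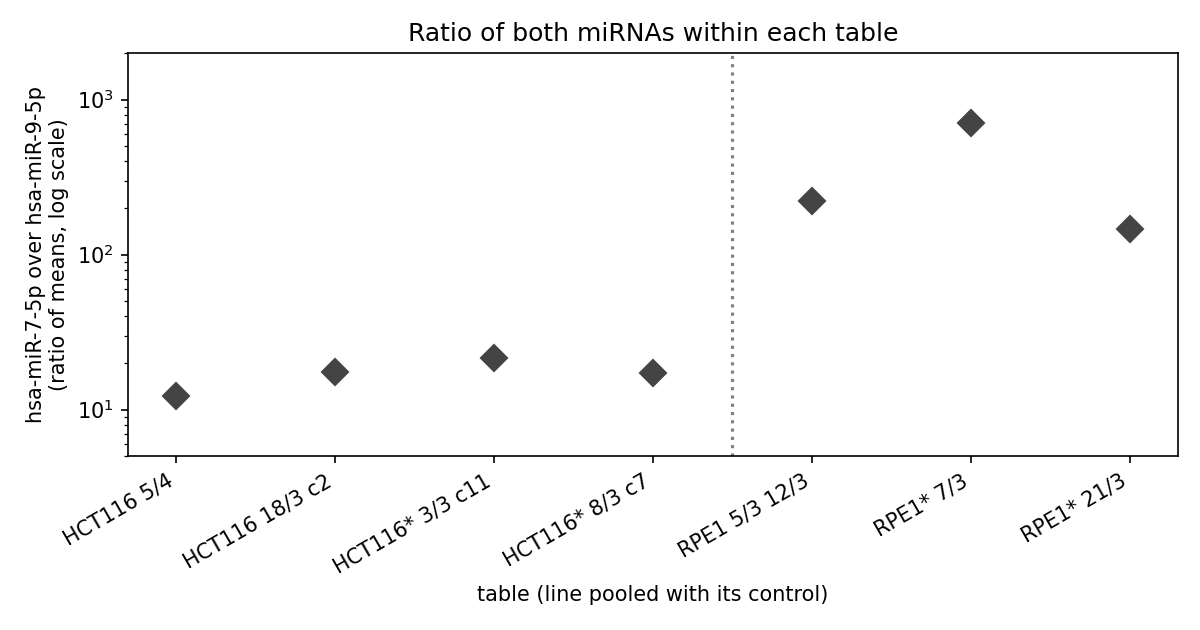
Ratio of the mean of hsa-miR-7-5p to that of hsa-miR-9-5p in each of the 7 tables, on a log axis, without error bars. The 4 HCT116 tables lie between 12.2 and 21.5 and the 3 RPE1 tables between 146 and 710.

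Over the 4 HCT116 tables the highest ppm level of hsa-miR-7-5p was 1.24 times the lowest, and 188 of the 205 shared miRNAs had a wider range. Over the 3 RPE1 tables its highest level (RPE1* 7/3) was 5.02 times its lowest (RPE1* 21/3), and 8 of the 205 had a wider range. In log2 units these ranges were 0.31 and 2.33, beside medians of 0.93 and 1.04 over the shared miRNAs. For hsa-miR-9-5p the highest was 1.50 times the lowest in the HCT116 tables and 1.59 times in the RPE1 tables, with 155 and 147 of the 205 wider. The narrow HCT116 range of hsa-miR-7-5p depended on the scaling. With the deposited means its highest was 1.90 times its lowest in the HCT116 tables (112 of the 205 wider) and 6.99 times in the RPE1 tables, and with the median of ratios 1.36 times (170 of the 205 wider) and 5.64 times. For hsa-miR-9-5p these were 1.23 and 1.79 times with the deposited means and 1.41 and 1.56 times with the median of ratios. These scalings of the ranges were added after seeing the data. The 3 tables on HCT116* libraries share their controls, which enter each of those means.

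Some of the gained chromosomes carry a locus of a member. The gene MIR9-2 lies on chromosome 5, of which HCT116 5/4 has 4 copies and RPE1 5/3 12/3 has 3. Their tables gave the highest levels of hsa-miR-9-5p in ppm within their cell type, 2663 and 14.2. On the deposited scale HCT116 5/4 had the lowest hsa-miR-9-5p mean of the HCT116 tables (14798), so that order depends on the scaling. The gene MIR7-1 lies on chromosome 9, which RPE1* 7/3 gained without design, and the table of RPE1* 7/3 had the highest hsa-miR-7-5p level of the RPE1 tables. The part of copy number in these levels was not tested. Line, control and sequencing batch cannot be told apart in the means.

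The cell types were checked with miRNAs known to mark them. Of gut epithelial miRNAs, 7 of 12 names were listed. The miRNA hsa-miR-200a-5p, of the epithelial miR-200 family, was at 1138 to 2544 ppm in the HCT116 tables and at 0.584 in 1 RPE1 table, without an entry in the others. The related hsa-miR-200b-5p, hsa-miR-200c-5p and hsa-miR-141-5p were listed in all 4 HCT116 tables and in 0 RPE1 tables. The intestinal hsa-miR-192-5p reached 281 to 586 ppm in the HCT116 tables and 166 to 242 in the RPE1 tables, while the ranges of hsa-miR-194-5p (16.3 to 139 and 3.93 to 24.5) and hsa-miR-215 (5.71 to 23.8 and 4.64 to 7.97) overlapped. Of pigment epithelial miRNAs, hsa-miR-204-5p was at 380 to 1450 ppm in the RPE1 tables and at 3.302 to 4.501 in the HCT116 tables, and hsa-miR-211-5p stayed at or below 1.98 wherever it was listed.

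Of 12 names of other neural miRNAs, 3 were listed. The levels of hsa-miR-218-5p, hosted by the SLIT genes, were 195 to 249 ppm in the HCT116 tables and 117 to 284 in the RPE1 tables. The miRNA hsa-miR-132-5p was at 99.6 to 195 in the HCT116 tables and at 30.6 to 61.2 in the RPE1 tables. The oligodendrocyte miRNA hsa-miR-219-5p was at 3.40 ppm or less in 3 HCT116 tables and at 0.741 or less in 2 RPE1 tables. Of the 2 names for the endocrine miR-375, 0 were listed. As few 3p arms are listed, an absent name does not show absence from the cells.

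The miRNAs with levels most like the members over the 7 tables were found from the root mean square difference of log2 levels, each miRNA centred on its own mean, among 172 others with a mean of at least 10 in every table. For hsa-miR-7-5p they were hsa-miR-378i (0.51), hsa-miR-378a-5p (0.61) and hsa-miR-139-5p (0.61), beside a median of 1.62 over the 172. The first went from a median of 733 ppm in the HCT116 tables to 34.2 in the RPE1 tables. For hsa-miR-9-5p the closest were hsa-miR-10b-5p (1.32), hsa-miR-330-5p (1.51) and hsa-miR-126-5p (1.54), beside a median of 3.47. Its nearest, hsa-miR-10b-5p, went from 3260 to 70.7 ppm. The points of these profiles share control libraries and the cell type.

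**Figure D4:**
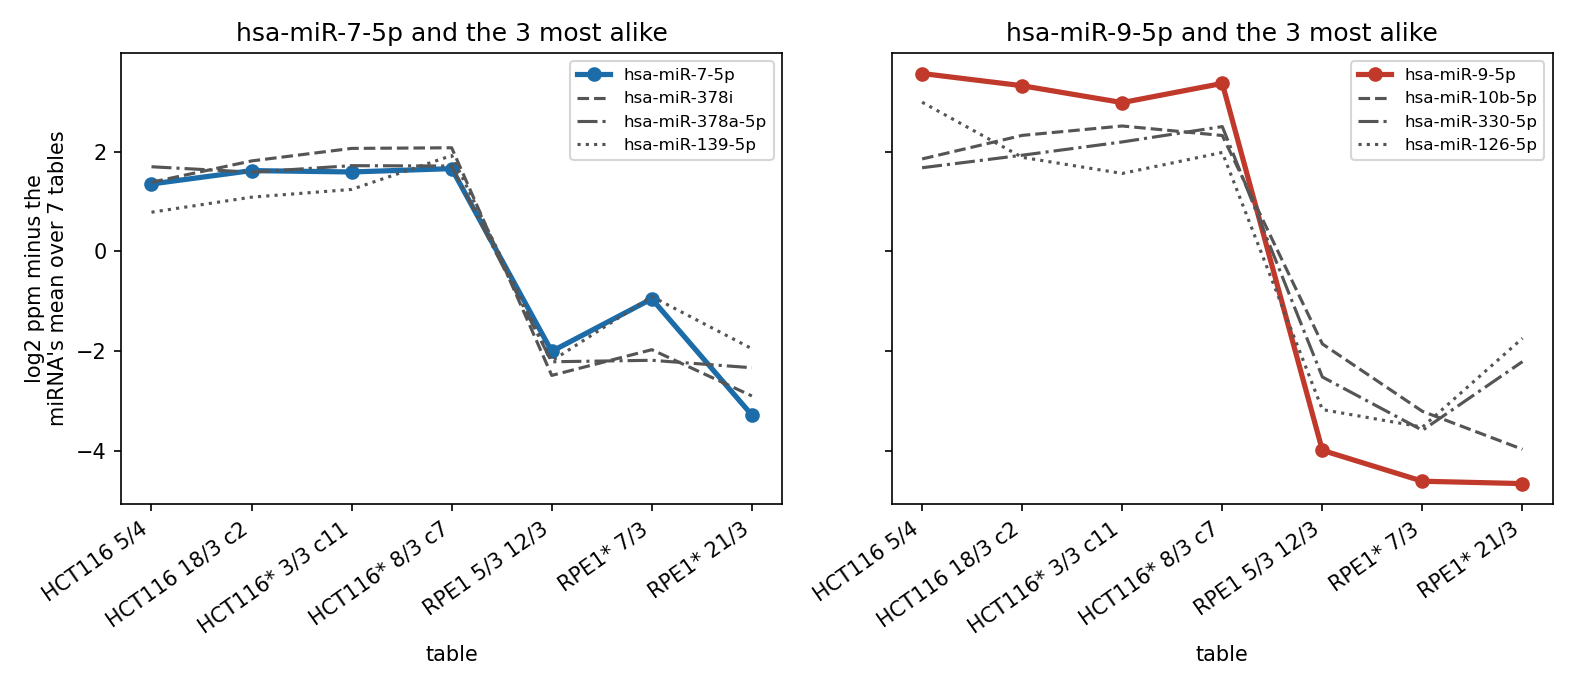
Log2 level in ppm, minus each miRNA's own mean over the 7 tables, for hsa-miR-7-5p (left) and hsa-miR-9-5p (right) with the 3 most alike miRNAs of each. Lines join the values of 1 miRNA over tables and show no trend. All profiles drop from the HCT116 to the RPE1 tables.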

How the data were processed

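Small RNA was sequenced from 36 cultures in 12 groups of 3. The authors trimmed adapters with cutadapt, mapped reads to hg19, counted mature miRNAs with mirdeep2 and used DESeq2, whose version is not given in the sources used here. The deposited signal is the authors' mean of counts divided by size factors over the 6 libraries of a table. The deposited tables also hold the authors' own fold changes, standard errors, test statistics and p-values, which were not used. No column holds a single library, so no count model could be fitted here. With the authors' standard errors set aside, the levels carry no replicate error. Groups follow the sample titles.

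Means were scaled to parts per 1000000 of a table's sum, and medians of log2 levels were compared between 4 HCT116 and 3 RPE1 tables without a test. Named miRNAs are the members, their opposite arms, miRNAs of the same seed, the 2 neighbours in rank on either side in the table with the highest level per cell type, the 3 most alike per member (minimum mean 10 in each table), marker lists, and the leading miRNA where a share turns on it; hsa-miR-3150a-5p, hsa-miR-3529-5p and hsa-miR-581 were named after their values were seen. Members and lists were chosen with earlier results of these data known. Mature sequences and hairpins come from RefSeq (GRCh38.p14), positions from exact matches to GRCh37, and genes from GENCODE 44. Python 3.11.15, numpy 2.4.6, pandas 2.3.3 and matplotlib 3.10.9 were used, and the scripts were tested on simulated data.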

Additional observations from a re-analysis of the deposited data

How the results depend on the processing

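Other settings were tried (other scalings, a minimum mean of 10, only shared miRNAs, means for medians, and leaving out each table). Over 51 alternatives to 6 results on levels, ranks and the ratio of the pair, 47 moved by less than the spread between tables (the larger SD of both cell types, or that of the cell type for the ratio), 4 moved by more, and 0 changed direction. Leaving out a table or taking means for medians could not reverse a direction. Every HCT116 table already lay above every RPE1 table for both members, and hsa-miR-7-5p exceeded hsa-miR-9-5p in every table. The log2 excess of hsa-miR-9-5p in HCT116 tables became 7.34 with the deposited means and 6.79 with the median of ratios, from 7.95. That of hsa-miR-7-5p fell from 3.61 to 2.62 with the median of ratios. It counts among the 47 because its spread was 1.17, beside 0.37 for hsa-miR-9-5p. The gap between cell types in the percentile rank of hsa-miR-9-5p, 40.5 percentage points, became 51.9 among means of at least 10 and 53.2 among miRNAs listed in all tables. Leaving out 1 table moved the log2 excess of hsa-miR-7-5p between 3.08 (without RPE1* 21/3) and 4.25 (without RPE1* 7/3), so 1 RPE1 table moves its fold by over 1.5 times from 12.2. For the other results these ranges were 7.64 to 7.97 for the log2 excess of hsa-miR-9-5p, 2.56 to 5.297 and 35.9 to 45.5 percentage points for the ranks of hsa-miR-7-5p and hsa-miR-9-5p, and, for the log2 ratio of the pair, 4.11 to 4.12 in HCT116 and 7.50 to 8.64 in RPE1 tables. Replicates could not be left out, since the means pool them. No paired analysis was possible because the result comes from no test and the tables hold no values of single libraries. The depth behind a mean is unknown.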
